A study of Mus musculus with 7 samples.

Results

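The genes described here encode enzymes of xenobiotic metabolism: cytochromes P450 of families Cyp1 to Cyp3, UDP-glucuronosyltransferases (Ugt), glutathione S-transferases (Gst) and sulfotransferases (Sult). They were chosen by symbol from the genes that had a microarray probe set of their own, 18193 in all. A probe set is the group of short probes that measures a transcript, and each gene was represented by the set with the highest mean. Of 87 genes with a matching symbol, 45 had a mean over log2 5 on the 7 arrays and form the list: 17 of 43 Cyp genes, 4 of 10 Ugt genes, 17 of 21 Gst genes and 7 of 13 Sult genes. The remaining 42 lay at or under that floor. Just inside it were Sult4a1 at a mean of 5.20 and Cyp2c54 at 5.25, and just outside were Gstm6 at 4.98 and Cyp2d13 at 4.95. A floor on the mean of all arrays can favour a gene that is high in 1 group only, so counts over the 45 genes are not counts over all genes of these families.

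The study took RNA from terminal ileum of male C57BL6J mice, 7 in all, at 8 weeks of age. From birth 4 of them were given penicillin at a low dose (6.7 mg/L), and the 3 controls had no antibiotic. Both groups were weaned at 4 weeks onto chow and at 6 weeks went over to a high-fat diet, with 45% of energy as fat. The labels call the samples biological replicates, so the spreads below are taken as spreads between mice. The p-values test the difference between group means against that spread, moderated across genes, and take the mice as independent. The sources used here give neither litter nor cage, so these cannot be told apart from penicillin. The tissue label is terminal ileum, although the growth protocol mentions livers. Fabp6, which carries bile acids in ileal enterocytes, read 14.28 to 14.64 on all 7 arrays, and Alb, the hepatocyte product albumin, read 5.15 to 7.95 with the groups overlapping.

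Phase I enzymes, chiefly the cytochromes P450 with electrons from NADPH, oxidise drugs, dietary compounds, steroids and fatty acids. Phase II enzymes then attach glucuronic acid, glutathione or sulfate, which makes the products easier to excrete. In the small intestine these enzymes sit mainly in the absorptive enterocytes of the villi and act on compounds before they reach the portal blood. Several of the genes are controlled by ligand-activated receptors, among them the aryl hydrocarbon receptor, the pregnane X receptor and the constitutive androstane receptor. Others are controlled by the transcription factor encoded by Nfe2l2, which responds to oxidants. HNF4A, a nuclear receptor of enterocytes and hepatocytes, takes part in the basal transcription of many of them.

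The comparison asked which of these enzymes differed in level between penicillin and control mice. The levels are log2 values, so a difference of 1 is a doubling, and every difference below is penicillin minus control. None of the 45 genes passed a Benjamini-Hochberg adjusted p of 0.05 in limma in either direction, beside 0.00733% of the 13644 genes tested that were called higher (1 gene) and 0.088% that were called lower (12 genes). The smallest adjusted p among the enzymes was 0.211, for Cyp2d26. At an unadjusted p under 0.05, 8 of the 45 (17.8%) had higher values in penicillin mice, beside 4.37% of all genes tested. They were Cyp2c68, Cyp2d26, Cyp2d40, Cyp2j6, Cyp2u1, Sult1b1, Ugt2b34 and Ugt2b36. A single enzyme, Cyp2e1, had lower values at that threshold (2.22%), beside 6.35% of all genes. All 4 penicillin arrays lay above all 3 control arrays for 6 enzymes (13.3%), beside 4.29% of all genes, and below them for Cyp2e1 alone (2.22%), beside 6.05%. The difference was above 0 for 29 of the 45 enzymes (64.4%), beside 45.3% of all genes. The median difference was 0.11 over the enzymes and -0.014 over all genes, and the enzyme median was 0.018 without control replicate 2. Without penicillin replicate 3, 5 enzymes were higher at an unadjusted p under 0.05 (11.1%), beside 2.77% of all genes.

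By family, the median difference was 0.17 over the 17 Cyp genes, with 13 higher, and 0.19 over the 4 Ugt genes, all higher. It was 0.18 over the 7 Sult genes, 4 of them higher, and -0.026 over the 17 Gst genes, 8 of them higher. Of the 9 enzymes with an unadjusted p under 0.05, 6 were Cyp genes, 2 Ugt genes, 1 a Sult gene and none a Gst gene. The differences of Gst genes ran only from -0.27 to 0.22, while those of Cyp genes ran from -1.27 to 1.41. With control replicate 3 left out the Gst median was 0.076, and 13 of 17 Gst genes were higher, as many as of the 17 Cyp genes (median 0.18). Without control replicate 2 the Cyp median was 0.33 and the Sult median 0.090, and without penicillin replicate 1 the Cyp median was 0.32. Differences between families were not tested.

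**Figure D1:**
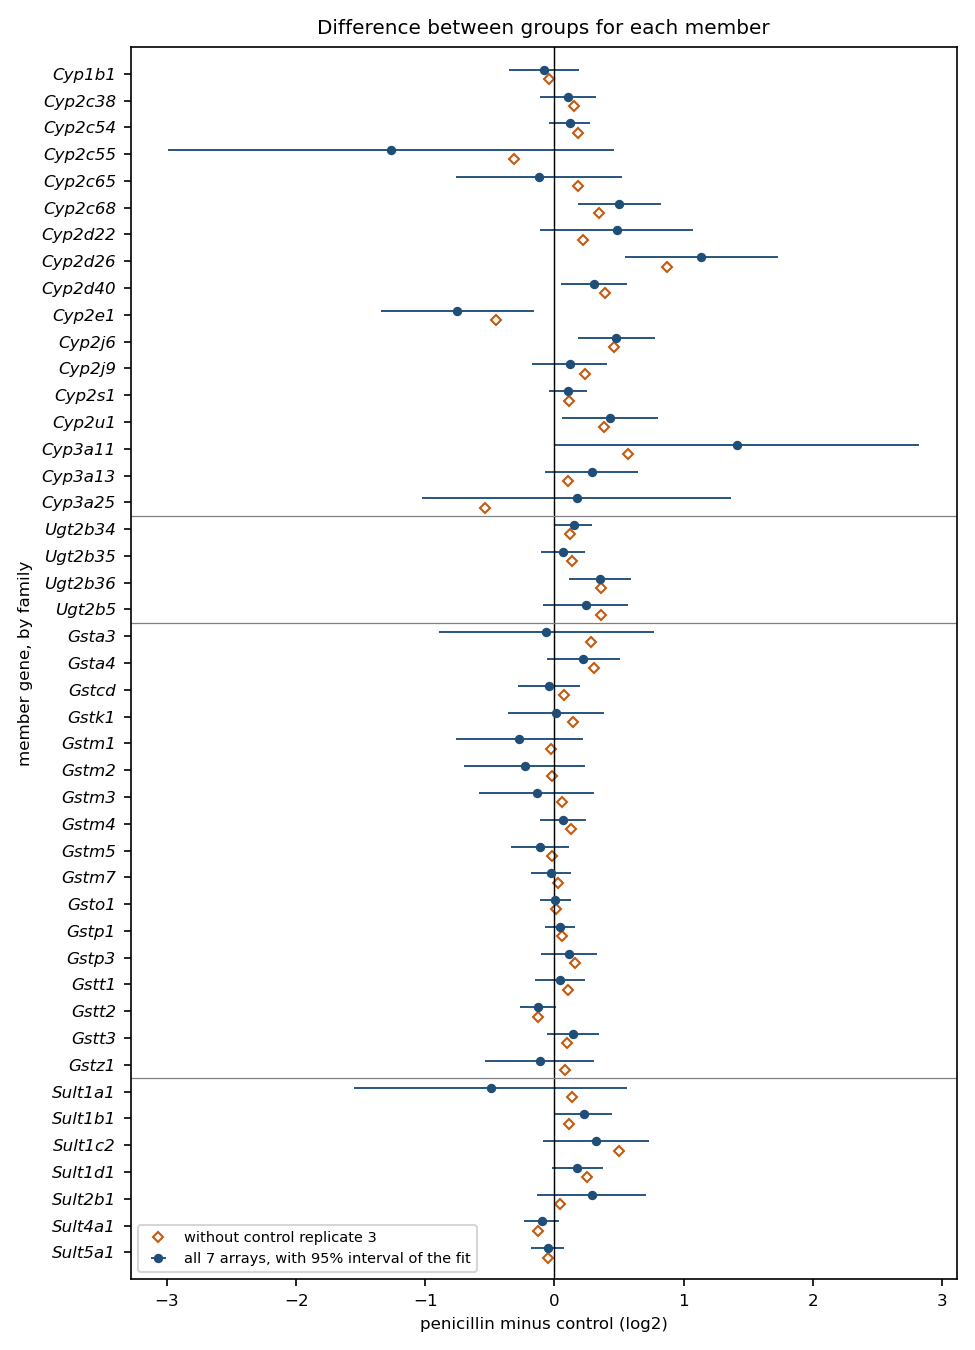
Difference between penicillin and control mice in log2 units for the 45 enzymes, ordered by family. Points and bars give the difference over all 7 arrays with its 95% interval from limma, and diamonds give the difference without control replicate 3. Most Gst genes sit close to 0, the 3 genes with a difference of at least 1 in size are Cyp3a11, Cyp2d26 and Cyp2c55, and for Cyp3a11 and Cyp2c55 the diamond lies far from the point.

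Control replicate 3 stood apart from the rest. The first principal component explained 48% of the variance, and the score of this array on it was -29.98, against -2.90 to 17.6 for the other arrays. Car1, a carbonic anhydrase of the colon, read 14.10 there against 5.11 to 10.82 elsewhere, and Aqp8, a colon water channel, 8.27 against 3.86 to 4.29. Of 11 colon genes, 6 were above the mean of the other controls on this array and 5 below it. Their mean deviation was 1.19 there, with a range of -0.13 to -0.10 in the other controls and -0.48 to 0.13 in penicillin mice. Without Car1 and Aqp8, the most extreme of them, it was 0.43 on this array and -0.20 to 0.059 on the others. For 20 brush border genes of enterocytes it was -0.82, with 0.070 to 0.099 in the other controls and -0.017 to 0.50 in penicillin mice, and for 6 adipocyte genes 0.89, with -0.40 to -0.089 and -0.58 to 0.33. This array held the highest value for 13 of the 45 enzymes and the lowest for 10 (51.1% together), as it did for 51.8% of all genes. Bulk tissue cannot tell fewer cells of a type from less RNA per cell.

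Of the 45 differences over all 7 arrays, 24 were smaller than 0.15 in size. With control replicate 3 left out, 8 of the 45 turned their sign, and 29 turned or moved by over 1.5 times. The same shares over all genes were not computed. Again no enzyme passed the adjusted threshold. At an unadjusted p under 0.05, 10 enzymes (22.2%) were then higher, beside 4.33% of all genes, and 1 (2.22%), Cyp2e1, was lower, beside 6.28%. Cyp2c68, Cyp2d26, Cyp2d40, Cyp2j6 and Ugt2b36 were higher at that threshold both with and without the array. Cyp2u1, Sult1b1 and Ugt2b34 were so only with it, and Cyp2c54, Gsta4, Sult1c2, Sult1d1 and Ugt2b5 only without it. All penicillin arrays lay above the 2 other controls for 14 enzymes (31.1%), beside 8.74% of all genes, and below them for Cyp2e1, Cyp3a25 and Sult4a1 (6.67%), beside 11.2%. The median difference over the enzymes was then 0.12 and -0.0042 over all genes, with 35 of 45 enzymes higher (77.8%), beside 48.3% of all genes.

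**Figure D2:**
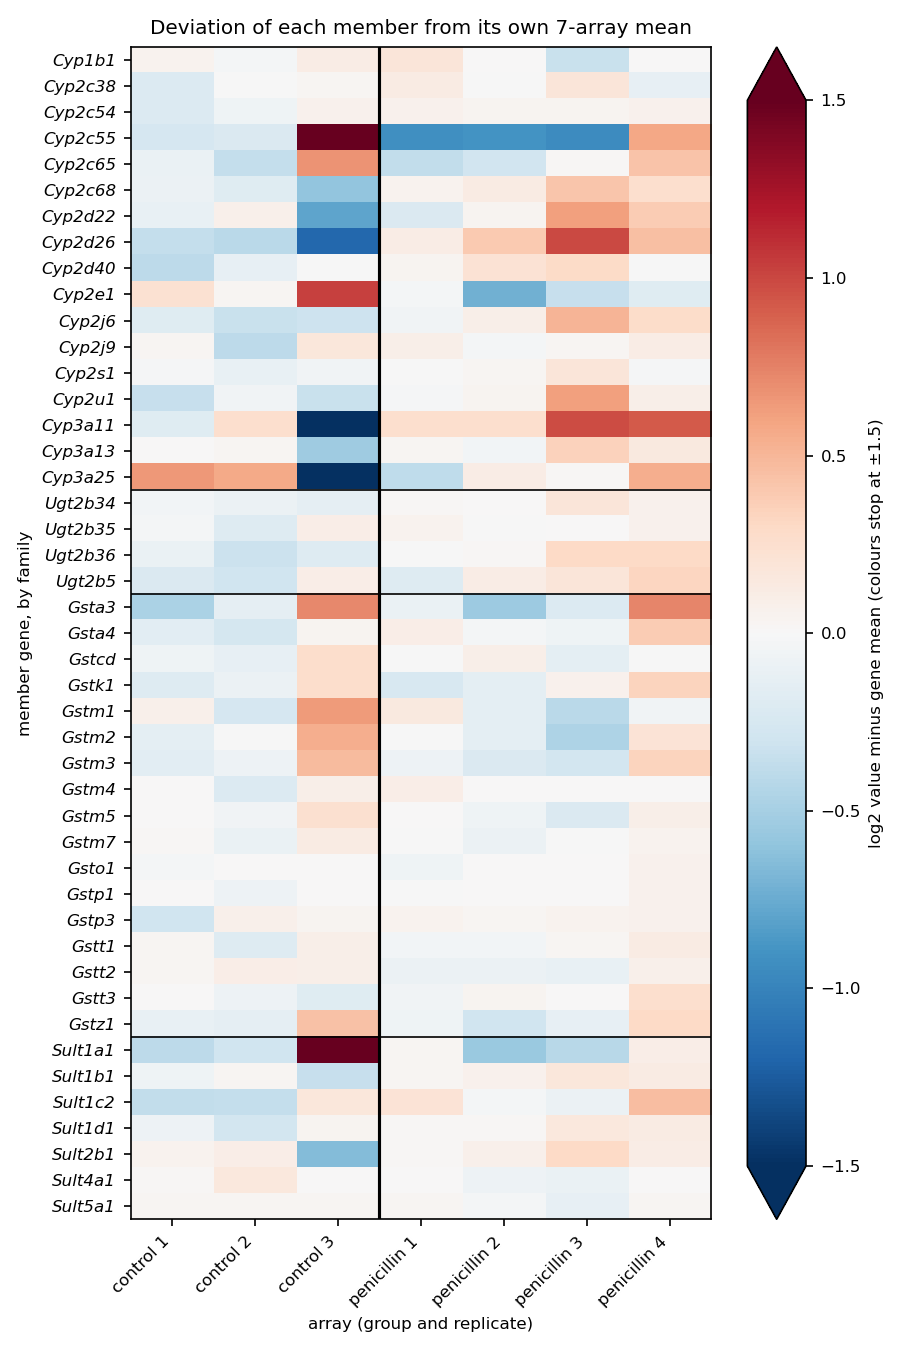
Deviation of each of the 45 enzymes from its own mean over the 7 arrays, in log2 units, with arrays in columns and genes grouped by family. Colours stop at 1.5 in either direction. Control replicate 3 shows the strongest colours, dark in opposite directions for Cyp3a11 and Cyp2c55, while penicillin replicates 3 and 4 hold most of the highest values among the other arrays.

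Among the penicillin mice, replicate 3 held the highest value of all 7 arrays for 15 enzymes (33.3%), beside 15.8% of all genes, and replicate 4 for 9 (20%), beside 10.2%. Replicate 3 also held the lowest value for 10 enzymes (22.2%), beside 20.6% of all genes. Penicillin replicate 4 held the lowest value for 0 enzymes, beside 9.21% of all genes. Penicillin replicate 2 held the highest for 0 (beside 7.98%) and the lowest for 4 (8.89%, beside 8.81%). Penicillin replicate 1 held the highest for 3 (6.67%, beside 9.14%) and the lowest for 3 (6.67%, beside 11.9%). The mean deviation over the 45 enzymes was -0.027, -0.059, 0.052 and 0.19 in penicillin replicates 1 to 4 and -0.092, -0.098 and 0.032 in control replicates 1 to 3, so the groups overlapped.

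The promoters of 39 of the enzymes were in the RefSeq table (GRCm38.p6), as 48 windows of 300 bases, from 250 before to 50 after the transcription start. Both strands were searched for GCGTG, the core bound by the aryl hydrocarbon receptor, TGACNNNGC, the antioxidant response element, and CAAAGTCCA, a sequence bound by HNF4A. GCGTG stood in 27.1% of the enzymes' windows and 32.4% of all windows, and TGACNNNGC in 10.4% and 12.4%. CAAAGTCCA stood in 4 windows (8.33%), beside 0.475% of all 32851 windows. The 4 belong to Cyp2c65, Cyp2c68, Cyp3a11 and Sult1b1. Cyp2c65 and Cyp2c68 are relatives in the same cluster, so their windows are not independent. All windows include those of genes at any level in ileum, and the share over the genes tested was not computed. The differences of the 4 genes, in that order, were -0.12, 0.50, 1.41 and 0.23. Hnf4a itself read 12.38 to 12.53 on all arrays. The Cyp2c65, Cyp2c68 and Cyp3a11 matches lie 116, 77 and 109 bases before the start. The Sult1b1 match lies after the start (a distance before it of -25 bases) and is not shown. The other 3 are given with flanking bases, 5′ to 3′ on the gene's strand, with the motif in capitals. A match is a description of the letters only.
Cyp2c65, chr19:39060874-39060914, plus strand: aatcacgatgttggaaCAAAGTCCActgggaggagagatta
Cyp2c68, chr19:39741154-39741194, minus strand: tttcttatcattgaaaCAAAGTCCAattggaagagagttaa
Cyp3a11, chr5:145879939-145879979, minus strand: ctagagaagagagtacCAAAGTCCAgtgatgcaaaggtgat

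The whole window is shown for Cyp2d26, the enzyme with the smallest p. It held none of the 3 motifs, on either strand.
Cyp2d26, chr15:82794196-82794495, minus strand: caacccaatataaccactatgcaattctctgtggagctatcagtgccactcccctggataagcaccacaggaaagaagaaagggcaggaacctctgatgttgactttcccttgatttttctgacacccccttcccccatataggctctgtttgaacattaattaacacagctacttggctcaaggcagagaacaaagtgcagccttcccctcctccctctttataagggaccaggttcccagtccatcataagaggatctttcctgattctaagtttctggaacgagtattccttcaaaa

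The smallest p belonged to Cyp2d26, an enzyme of the Cyp2d subfamily, whose human relative CYP2D6 oxidises many drugs. Cyp2d26 read 9.91, 9.87 and 9.10 in control mice and 10.38, 10.67, 11.26 and 10.72 in penicillin mice. Every penicillin mouse was above every control mouse, and control replicate 3 was the lowest. The means were 9.62 ± 0.458 (SD, n = 3) and 10.76 ± 0.368 (SD, n = 4), a difference of 1.14 ± 0.25 (SE, 2.20-fold, 95% interval 0.54 to 1.73, adjusted p = 0.211). With control replicate 3 left out it was 0.87 (adjusted p = 0.231), and the groups still did not overlap.

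The other Cyp2d genes above the floor had higher values in penicillin mice too, by less. Cyp2d22 read 6.74, 6.93 and 6.06 in control mice and 6.64, 6.89, 7.47 and 7.23 in penicillin mice, with overlapping groups and a difference of 0.48 ± 0.25 (SE, adjusted p = 0.522) that was 0.22 when control replicate 3 was left out. A second Cyp2d22 probe set gave 0.10. Cyp2d40 lay near the floor, at 4.88, 5.14 and 5.26 against 5.31, 5.48, 5.55 and 5.26. Its difference was 0.31 ± 0.11 (SE, adjusted p = 0.410), and penicillin replicate 4 was level with control replicate 3. Under the floor, and named after its values were seen, Cyp2d34 read 4.89, 4.98 and 5.66 in control mice and 4.42 to 4.52 in penicillin mice, the opposite direction.

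Cyp2j and Cyp2u enzymes oxidise long-chain fatty acids such as arachidonic acid. Cyp2j6 read 9.07, 8.92 and 8.94 in control mice and 9.20, 9.34, 9.76 and 9.52 in penicillin mice. The groups did not overlap, and control replicate 3 lay between the other controls. The difference was 0.48 ± 0.13 (SE, 1.39-fold, adjusted p = 0.302), and 0.46 without that array. A further Cyp2j6 probe set gave 0.54. Cyp2u1 read 6.45, 6.75 and 6.46 against 6.78, 6.84, 7.41 and 6.89, a difference of 0.43 ± 0.16 (SE, adjusted p = 0.421). Its groups did not overlap, though penicillin replicate 1 exceeded control replicate 2 by little, and a second Cyp2u1 probe set, with a mean under log2 5, gave 0.17. The remaining Cyp2j gene, Cyp2j9, differed by 0.12.

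**Figure D3:**
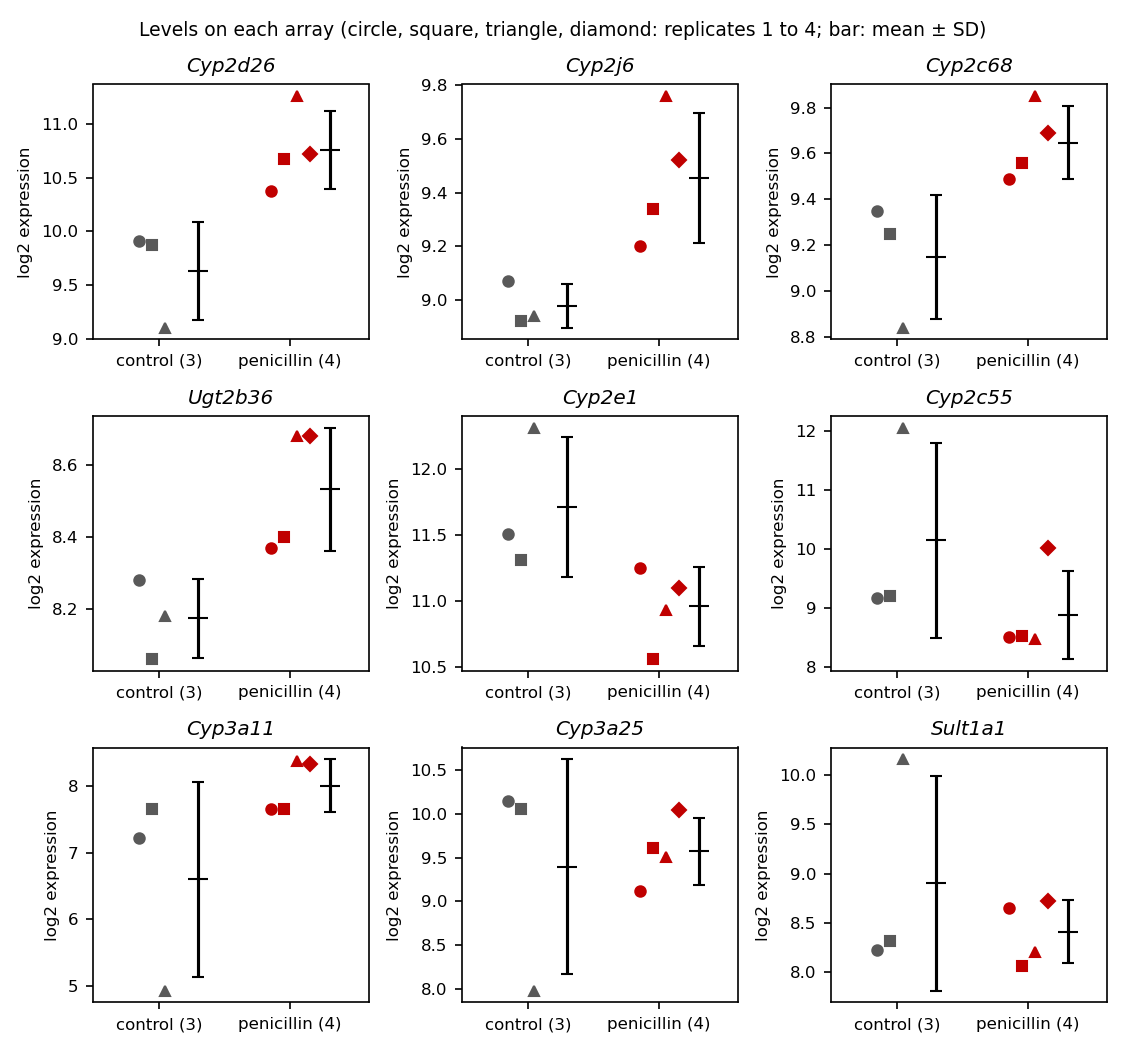
Log2 level of 9 enzymes on each array, control and penicillin side by side, with circles, squares, triangles and diamonds for replicates 1 to 4 and bars for mean and SD. Cyp2d26, Cyp2j6, Cyp2c68 and Ugt2b36 show penicillin points above all control points, Cyp2e1 shows them below, and in Cyp2c55, Cyp3a11, Cyp3a25 and Sult1a1 the triangle of control replicate 3 lies far from the other controls.

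The 5 Cyp2c genes, a subfamily that oxidises drugs and polyunsaturated fatty acids, did not share a direction. Cyp2c68 read 9.35, 9.25 and 8.84 in control mice and 9.49, 9.56, 9.85 and 9.69 in penicillin mice. All penicillin values were above all control values, with control replicate 3 lowest. The difference was 0.50 ± 0.14 (SE, 1.42-fold, adjusted p = 0.308), and 0.35 without control replicate 3.

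Cyp2c55, which hydroxylates arachidonic acid, went the other way. It read 9.17, 9.21 and 12.06 in control mice and 8.51, 8.53, 8.48 and 10.01 in penicillin mice. Control replicate 3 and penicillin replicate 4 were high, and the groups overlapped. The difference of -1.27 ± 0.74 (SE, 2.41-fold, 95% interval -2.99 to 0.46, adjusted p = 0.548) shrank to -0.31 with control replicate 3 left out. On that array the colon score of 1.19 was also the highest. The colon score was -0.30 in penicillin replicate 4, and 0.13 in penicillin replicate 1, where Cyp2c55 read 8.51. The part of this score in the Cyp2c55 values was not tested.

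Cyp2c65 read 9.73, 9.47 and 10.51 against 9.46, 9.55, 9.85 and 10.26, with overlapping groups and a difference of -0.12 that turned to 0.18 without control replicate 3. Cyp2c38 and Cyp2c54 differed by 0.11 and 0.12 (adjusted p = 0.664 and 0.548). Cyp2c54 lay near the floor, at 5.05 to 5.32 on all arrays.

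The Cyp3a genes encode the enzymes that oxidise a wide range of drugs, and Cyp3a11, whose promoter holds CAAAGTCCA, is a classic target of the pregnane X receptor. Cyp3a11 read 7.22, 7.66 and 4.92 in control mice and 7.66, 7.66, 8.38 and 8.33 in penicillin mice. Control replicate 3 lay far below every other array, and control replicate 2 was level with penicillin replicates 1 and 2. The difference was 1.41 ± 0.61 (SE, 2.66-fold, 95% interval -0.0068 to 2.83, adjusted p = 0.467), the largest among the enzymes, and 0.57 (1.48-fold) without control replicate 3.

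Cyp3a25 read 10.15, 10.06 and 7.98 in control mice and 9.12, 9.61, 9.51 and 10.04 in penicillin mice. Control replicate 3 was again the lowest, and the difference over all arrays was 0.17 (95% interval -1.03 to 1.37, adjusted p = 0.906). With that array left out it turned to -0.54 ± 0.23 (SE, adjusted p = 0.476), and all 4 penicillin mice lay below the 2 controls. Cyp3a13, a Cyp3a enzyme of the intestine, read 11.33, 11.36 and 10.80 against 11.36, 11.29, 11.68 and 11.48, a difference of 0.29 that was 0.11 without control replicate 3. The brush border score of -0.82 on control replicate 3 stands beside these 3 low readings, and its part in them was not tested.

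Cyp2e1, which oxidises ethanol and small solvents, was the only enzyme with all penicillin values below all control values. It read 11.51, 11.31 and 12.31 in control mice and 11.25, 10.56, 10.93 and 11.10 in penicillin mice. Control replicate 3 was the highest, and penicillin replicate 1 lay just under control replicate 2. The means were 11.71 ± 0.529 (SD, n = 3) and 10.96 ± 0.296 (SD, n = 4), a difference of -0.75 ± 0.25 (SE, 1.68-fold, 95% interval -1.34 to -0.16, adjusted p = 0.400). Without control replicate 3 it was -0.45 (1.37-fold, adjusted p = 0.456). Cyp2e1 is also expressed in adipose tissue. The score of the 6 adipocyte genes was -0.40, -0.089 and 0.89 in control replicates 1 to 3 and 0.063, -0.58, -0.21 and 0.33 in penicillin replicates 1 to 4, and its part in the Cyp2e1 difference was not tested.

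Cyp1b1 and Cyp2s1, both linked to the aryl hydrocarbon receptor, differed by at most 0.11 in size. Cyp1b1 read 5.76, 5.67 and 5.82 in control mice and 5.88, 5.71, 5.37 and 5.71 in penicillin mice, a difference of -0.080 (95% interval -0.35 to 0.19, adjusted p = 0.790) with overlapping groups. Cyp2s1, an epithelial P450, read 9.06, 8.97 and 9.03 against 9.08, 9.11, 9.26 and 9.06, a difference of 0.11 (95% interval -0.039 to 0.25) with the groups touching at 9.06. Cyp1a1, the standard readout of that receptor, lay under the floor at 4.12 to 4.73 on all arrays, and so did Cyp2b10, the standard readout of the constitutive androstane receptor, at 4.43 to 5.15. Cyp2c29 also lay under the floor, at a mean of 4.27.

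The 4 Ugt genes above the floor, of 10 with probe sets of their own, all belonged to Ugt2b, a subfamily that conjugates steroids, bile acids and drugs with glucuronic acid, and all 4 had higher values in penicillin mice. Ugt2b36 read 8.28, 8.06 and 8.18 in control mice and 8.37, 8.40, 8.68 and 8.68 in penicillin mice. The groups did not overlap, and control replicate 3 lay between the other controls. The difference was 0.36 ± 0.10 (SE, 1.28-fold, adjusted p = 0.334), and 0.36 again without control replicate 3.

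Ugt2b34 read 12.37, 12.32 and 12.28 against 12.43, 12.41, 12.59 and 12.47, also without overlap, a difference of 0.15 ± 0.061 (SE, adjusted p = 0.451). A second Ugt2b34 probe set gave 0.30. Ugt2b5 and Ugt2b35 differed by 0.24 and 0.066 (adjusted p = 0.552 and 0.732). With control replicate 3 left out these became 0.36 and 0.14. All 4 penicillin mice then lay above the remaining controls for each of the 4 genes, beside 8.74% of all genes. The 4 genes are close neighbours and relatives, and their probes can bind each other's transcripts, so they are not independent measurements. There were 3 further sets of the Ugt1a locus, whose genes share most of their exons. Each was annotated to 8 genes and therefore names none. They differed by 0.025 to 0.072, and by 0.090 to 0.16 without control replicate 3.

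Glutathione S-transferases differed by at most 0.27 in size. Gstm enzymes, the mu class, conjugate electrophiles such as epoxides. Gstm1 read 9.15, 8.82 and 9.71 in control mice and 9.21, 8.92, 8.66 and 9.01 in penicillin mice. Control replicate 3 was the highest and the groups overlapped, with a difference of -0.27 ± 0.21 (SE, adjusted p = 0.621) that was -0.029 without that array. Its 3 other probe sets gave -0.35 to -0.043.

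The same array was highest for 5 of the 6 Gstm genes. Gstm2 read 7.56, 7.69 and 8.25 against 7.70, 7.56, 7.24 and 7.91, a difference of -0.23. Gstm3 read 7.53, 7.61 and 8.16 against 7.61, 7.47, 7.41 and 8.02, a difference of -0.14, while its second probe set gave 0.18. Gstm5 read 9.33, 9.27 and 9.57 against 9.33, 9.26, 9.11 and 9.41, a difference of -0.11. The groups of all 3 overlapped. Over the 6 Gstm genes the median difference was -0.13, and 0.0033 with control replicate 3 left out, with Gstm4 at 0.068 and Gstm7 at -0.026 over all arrays.

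Gsta4, the alpha class enzyme that removes hydroxynonenal, a product of lipid peroxidation, read 10.44, 10.34 and 10.64 in control mice and 10.70, 10.57, 10.53 and 10.98 in penicillin mice. The groups overlapped only through control replicate 3, and the difference of 0.22 ± 0.12 (SE, adjusted p = 0.529) became 0.31 (adjusted p = 0.471) without it. Gsta3 read 6.30, 6.65 and 7.5 against 6.68, 6.24, 6.58 and 7.51. Control replicate 3 and penicillin replicate 4 were level and high, and the difference of -0.062 (95% interval -0.89 to 0.77) turned to 0.28 without the former. A set shared by Gsta1, Gsta2 and Gm3776, which names none of them, differed by 0.24, with penicillin replicate 4 highest at 11.70.

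Gstp1 and Gsto1 had the tightest intervals of the Gst genes, while that of Gsta3 ran from -0.89 to 0.77. Gstp1, the pi class enzyme of epithelia, read 13.23, 13.15 and 13.23 in control mice and 13.22, 13.23, 13.23 and 13.29 in penicillin mice. Its difference was 0.044 (95% interval -0.071 to 0.16). Gsto1, the omega class enzyme that can reduce dehydroascorbate, read 12.58 to 12.71 on all 7 arrays, a difference of 0.0053 (95% interval -0.11 to 0.13). A second Gsto1 probe set gave 0.084.

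Gstt2, a theta class enzyme, read 9.17, 9.24 and 9.22 against 9.05, 9.05, 9.02 and 9.21. Penicillin replicates 1 to 3 lay below all controls and penicillin replicate 4 did not, for a difference of -0.13 ± 0.061 (SE, adjusted p = 0.501). Its neighbour Gstt1 read 8.80, 8.58 and 8.86 against 8.73, 8.73, 8.80 and 8.90, a difference of 0.045, and Gstt3 differed by 0.15. Gstk1, the kappa class enzyme of peroxisomes and mitochondria, read 8.93, 9.03 and 9.39 against 8.88, 8.98, 9.19 and 9.46, a difference of 0.012. Gstz1, which isomerises maleylacetoacetate in tyrosine breakdown, read 8.29, 8.27 and 8.85 against 8.34, 8.11, 8.28 and 8.71, a difference of -0.11. The groups overlapped for Gstt1, Gstt2, Gstk1 and Gstz1. Gstp3 and Gstcd, the latter matched by its symbol, differed by 0.11 and -0.043.

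Sulfotransferases of the Sult1 family act on phenols, catecholamines and thyroid hormones. Sult1b1 read 11.33, 11.43 and 11.05 in control mice and 11.43, 11.46, 11.57 and 11.52 in penicillin mice. Control replicate 3 was the lowest, and control replicate 2 was level with penicillin replicate 1. The difference was 0.23 ± 0.094 (SE, adjusted p = 0.454), and 0.12 without control replicate 3.

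Sult1c2 read 6.90, 6.91 and 7.44 against 7.47, 7.24, 7.18 and 7.73. Control replicate 3 lay among the penicillin mice and the other controls below them. The difference was 0.32 ± 0.18 (SE, adjusted p = 0.529), and 0.50 (1.41-fold, adjusted p = 0.311) without that array. Sult1d1, which sulfates dopamine and related amines, read 12.20, 12 and 12.32 against 12.29, 12.29, 12.43 and 12.40, a difference of 0.18 that was 0.25 (adjusted p = 0.326) without control replicate 3.

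Sult1a1, the phenol sulfotransferase, read 8.23, 8.32 and 10.16 in control mice and 8.65, 8.07, 8.21 and 8.72 in penicillin mice. Control replicate 3 stood far above the rest, and the difference of -0.49 (95% interval -1.55 to 0.56, adjusted p = 0.675) turned to 0.14 without it. Sult2b1, which sulfates cholesterol, was low on that array, at 11.28, 11.32 and 10.57 against 11.24, 11.30, 11.52 and 11.33, a difference of 0.29 that was 0.045 without it. The remaining members, Sult4a1 and Sult5a1, differed by -0.10 and -0.052.

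**Figure D4:**
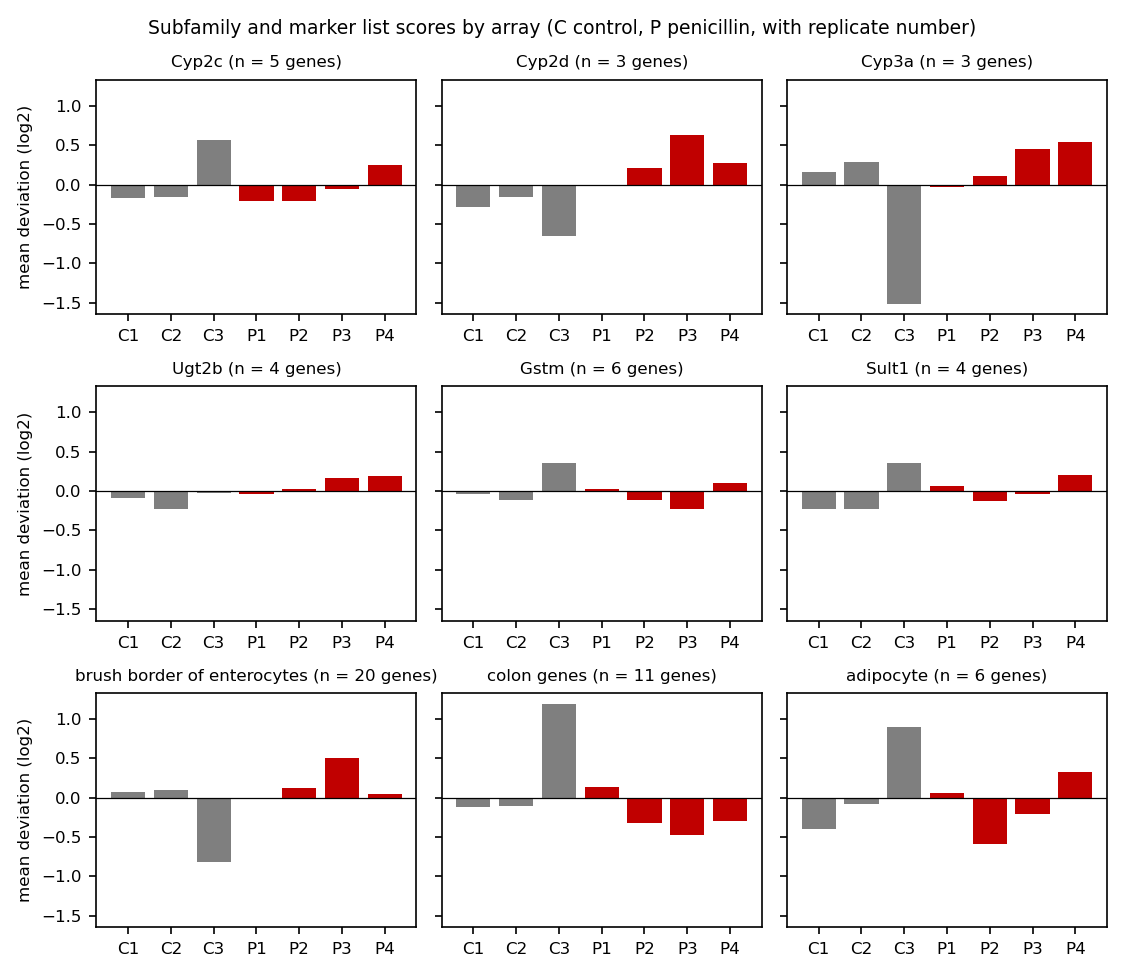
Mean deviation from each gene's own mean, in log2 units, for 6 enzyme subfamilies and 3 tissue lists on each of the 7 arrays, with bars starting at 0. Control replicate 3 has the deepest Cyp3a bar (-1.51) and the highest Cyp2c bar (0.56), beside its colon (1.19), adipocyte (0.89) and brush border (-0.82) bars, while Cyp2d is negative in all 3 control mice and, at -0.020, in penicillin replicate 1, and highest in penicillin replicate 3 (0.63).

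Many of these genes lie side by side, and genes of a cluster were not alike in every case. On chromosome 5, Ugt2b34, Ugt2b35, Ugt2b36, Ugt2b5, Sult1b1 and Sult1d1 follow each other with at most 10 protein-coding genes between neighbours, and all 6 had higher values in penicillin mice. The 3 Cyp2d genes above the floor, on chromosome 15, were all higher, while Cyp2d34, under the floor, had lower values. In the Cyp2c cluster of chromosome 19, 3 were higher and 2 lower, and in the Gstm cluster of chromosome 3, 1 was higher and 5 lower. The neighbours Cyp3a11 and Cyp3a25 on chromosome 5 were both lowest on control replicate 3, but with that array left out their differences had opposite signs, 0.57 and -0.54. Probes for close relatives can bind each other's transcripts, so members of such clusters are not independent measurements.

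Genes that regulate or serve these enzymes were listed by role, and none passed the adjusted threshold. Of all genes tested, 45.3% had higher values. At an unadjusted p under 0.05, 4.37% of all genes were higher and 6.35% lower. Of 17 receptors and regulators, 12 had higher values, with a median difference of 0.048 and -0.011 without control replicate 3. Ppara, the fatty acid receptor, differed by 0.20 (adjusted p = 0.398) and Nr1i3, the constitutive androstane receptor, by 0.22 (adjusted p = 0.441), the only 2 with an unadjusted p under 0.05. Ahr, Nr1i2 and Nfe2l2 differed by 0.038, 0.15 and 0.13. Of 12 genes for electron and haem supply to P450, 6 were higher, with a median of 0.0013. Alas1, which starts haem synthesis, was lower by 0.24 ± 0.064 (SE, adjusted p = 0.302) with groups that did not overlap, and Pgrmc1, a haem-binding partner of P450, differed by 0.20.

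Of 46 other phase I enzymes, 27 were higher, with a median of 0.030. At an unadjusted p under 0.05, 6 of the 46 were higher, beside 4.37% of all genes, and 3 were lower, beside 6.35%. Maob, a monoamine oxidase, differed by 0.58 ± 0.13 (SE, adjusted p = 0.231) and Bche, butyrylcholinesterase, by 0.46 ± 0.12 (SE, adjusted p = 0.302), both with every penicillin value above every control value. Of 13 other conjugating enzymes 6 were higher, with a median of -0.0050. Acsm3, an acyl-CoA synthetase, differed by 0.37 (adjusted p = 0.376) and Ptges by 0.19.

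Of 17 genes that supply glutathione, UDP-glucuronic acid or sulfate donors, 10 were higher, with a median of 0.10. At an unadjusted p under 0.05, 6 of the 17 were higher, beside 4.37% of all genes, and 1 was lower, beside 6.35%. Gclc, the catalytic subunit that starts glutathione synthesis, differed by 0.33 ± 0.097 (SE, adjusted p = 0.332), and Gsr, which regenerates glutathione, by -0.28 ± 0.073 (SE, adjusted p = 0.289). Of 16 transporters 9 were higher, with a median of 0.080. Abcc3, the basolateral exporter of conjugates, read 8.77, 8.74 and 8.94 in control mice and 8.31, 8.31, 8.19 and 8.48 in penicillin mice, a difference of -0.49 ± 0.083 (SE, 1.41-fold, adjusted p = 0.108). Abcc2, the exporter of conjugates on the brush border, read 8.52, 8.53 and 7.26 against 8.93, 9.02, 9.47 and 9.38, a difference of 1.10 ± 0.32 (SE, 2.14-fold, adjusted p = 0.332), and 0.67 without control replicate 3. The groups of both did not overlap and lay in opposite directions.

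Lists of genes for cell types and gut regions stood beside these differences. All 20 brush border genes tested, of 23 listed, had higher values in penicillin mice, with a median of 0.27, but with control replicate 3 left out 9 were higher and the median was -0.023. Of 11 proximal small intestine genes tested, of 15 listed, 10 had higher values (median 0.33), and 8 without control replicate 3 (median 0.15). Their score was -0.11, 0.12 and -0.57 in control replicates 1 to 3 and -0.29, 0.034, 0.36 and 0.46 in penicillin replicates 1 to 4. The score of the 17 Cyp genes was likewise lowest in control replicate 3 (-0.18) and highest in penicillin replicates 3 and 4 (0.21 and 0.23). Of 10 ileum identity genes 9 had higher values (median 0.11), and 5 without control replicate 3 (median -0.0034). Of 13 leukocyte genes tested, of 15 listed, 12 had lower values, and the median was -0.44, or -0.42 without control replicate 3. Of the 12, 1 passed the adjusted threshold, beside 0.088% of all genes called lower. The leukocyte score was 0.29 to 0.35 in control mice and -0.53 to -0.034 in penicillin mice, lowest in penicillin replicate 3, where Cyp2d26, Cyp2j6 and Cyp2c68 were highest. All 9 smooth muscle genes had lower values (median -0.15, and -0.21 without control replicate 3). So did all 10 proliferation genes tested, of 12 listed (median -0.15), but 5 of them were higher without control replicate 3 (median -0.0045). The part of these lists in the enzymes' differences was not tested.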

How the data were processed

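Biotin-labelled RNA was hybridised to Affymetrix arrays, per the labels' protocols. The deposited values are log2 expression per probe set, made by the authors with RMA (background correction, equalised distributions, probe summary) and affy, per the submitters' processing notes. Their versions were not given in the sources used here. RMA gives no detection call. The number of arrays limits the precision.

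Of 45101 probe sets, 34945 had 1 gene in the platform annotation. Genes with a mean over the 25th percentile (log2 4.588) were tested (13644). Groups came from the labels' titles and treatment. limma 3.58.1 (R 4.3.3) compared 4 penicillin with 3 control arrays by lmFit and eBayes, two-sided, adjusted by Benjamini-Hochberg over all genes tested. The fit was also run on simulated data with independent noise for each gene. Those data held no array set apart as control replicate 3 was, so they do not check the fit for that case. Medians, counts and scores have no test. A score is the mean deviation of a list's genes from their own means.

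Genes named with all values were the 10 with the largest difference in each direction and a list of well-known enzymes. Of the related pathway lists, up to 2 genes with the largest moderated t were named, and of the tissue lists some defining genes (Fabp6, Car1, Aqp8, Alb). Other members, Cyp2d34, Ahr, Nr1i2, Nfe2l2 and Hnf4a were named after their values were seen. Members and lists were chosen with earlier results of these data known. Alternatives covered normalization, centring, filters, probe sets, prior, weights, a replicate block, left-out arrays, threshold and moderation. Genes with only shared probe sets, such as Ugt1a1, Ugt1a6a and Gsta1, are not analysed here. Promoters came from RefSeq (GRCm38.p6). All 45 genes matched RefSeq by gene ID. Figures used matplotlib 3.10.9 (Python 3.11.15).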

Additional observations from a re-analysis of the deposited data

Results flagged for a closer look

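Penicillin replicate 4 was flagged as apart from the other penicillin mice for 3 of the 45 enzymes. The rule was a gap test within groups of 4 that chance passes in about 1 in 20 groups. At that rate a few of 45 enzymes would be flagged by chance, and the share over all genes was not computed. Cyp2c55 read 10.01 there and 8.48 to 8.53 in the other 3. Gstt2 read 9.21 there and 9.02 to 9.05 in the others, and this value alone brought the penicillin group into the range of the controls. Gstp1 read 13.29 there and 13.22 to 13.23 in the others. The control group, with 3 mice, was too small for the same test. Control replicate 3, which was also high for Cyp2c55, was therefore not judged by it.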

How the results depend on the processing

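No enzyme passed the adjusted threshold in limma in 18 of 19 settings, also not at an adjusted p under 0.1, and the smallest adjusted p lay between 0.182 and 0.724 in those fits. Array quality weights called 3 higher (Cyp2c54, Cyp2d26 and Cyp2d40), beside 286 higher and 488 lower of all genes. Enzymes higher at an unadjusted p under 0.05 numbered 15 with those weights (33.3%, beside 11.3% of all genes) and 5 with the unmoderated statistic (11.1%, beside 3.49%). They numbered 4 with a replicate block (8.89%, beside 2.15%) and 5 to 10 with 1 array left out (11.1% to 22.2%, beside 2.77% to 5.78%). Those lower numbered 0 with the unmoderated statistic (beside 5.58% of all genes) or with both replicates 3 left out (beside 6.52%). With 1 array left out they numbered 1 to 2 (2.22% to 4.44%, beside 4.46% to 8.82%). Enzymes with all penicillin values above numbered 10 after a second quantile normalization (22.2%, beside 6.98% of all genes) and 15 without both replicates 3 (33.3%, beside 11.3%). With 1 array left out they numbered 6 to 14 (13.3% to 31.1%, beside 5.05% to 9.48%). Those below numbered 2 with the mean of all probe sets (4.44%, beside 5.86%) and 3 without both replicates 3 (6.67%, beside 14.5%). With 1 array left out those below numbered 1 to 3 (2.22% to 6.67%, beside 7.23% to 15.1%). With 1 array left out, the median ranged from 0.018 to 0.12 over all enzymes, 0.16 to 0.33 for Cyp, -0.083 to 0.076 for Gst and 0.090 to 0.20 for Sult. The Cyp median was 0.29 with a filter at the 50th percentile, the Gst median 0.11 without both replicates 3, and the Sult median 0.073 with weights and 0.090 without both replicates 3. Whether the replicate numbers pair the mice could not be decided. The deviations of same-numbered mice from their group means correlated across genes at -0.164, 0.003 and -0.416. Those means rest on 3 or 4 arrays each, and control replicate 3 stood apart, so the correlations cannot settle it.

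Of the 33 enzymes named with all values, 19 kept their sign in every setting. Signs turned without both replicates 3 for Cyp1b1 (0.054), Cyp2c65 (0.15), Cyp3a25 (-0.52), Gsta3 (0.34), Gstm1 (0.068), Gstm2 (0.097), Gstm3 (0.13), Gstm5 (0.034), Gstz1 (0.11), Sult1a1 (0.20) and Sult2b1 (-0.014). They turned with weights for Cyp3a25 (-0.46), Gsta3 (0.28), Gstm2 (0.012), Gstm3 (0.044), Gstt1 (-0.0044) and Sult1a1 (0.028), with a replicate block for Gstk1 (-0.0996) and Gsto1 (-0.015), with the mean of all probe sets for Gstm3 (0.019) and with a second quantile normalization for Gsto1 (-0.015). With 1 array left out the differences ranged from -0.15 to 0.021 for Cyp1b1, -0.34 to 0.18 for Cyp2c65, -0.54 to 0.55 for Cyp3a25, -0.32 to 0.28 for Gsta3, -0.0996 to 0.15 for Gstk1, -0.27 to 0.056 for Gstm3, -0.015 to 0.030 for Gsto1, -0.040 to 0.10 for Gstt1, -0.23 to 0.078 for Gstz1 and -0.83 to 0.14 for Sult1a1. The cause was not tested.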
